A study of Mus musculus with 16 samples.

Results

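The 31 brain endothelial genes were chosen by name as transcripts that mark the cells lining brain vessels, with earlier results of these data known. All probes whose platform symbol is 1 of these names were taken, whatever their values. Of the 31 genes, 29 had a probe, with 42 probes among the 25697 of the array. Cldn5, the main claudin of endothelial tight junctions, and Ly6a, a surface antigen of endothelial and progenitor cells, had none, so no level of either is given. A probe was tested where its signal stood above the background of at least 2 of the 16 arrays, which held for 35 of the 42 probes and for 16344 of all probes. This left 27 genes with a tested probe, each described by its probe of highest mean level. Kdr, the main receptor for VEGF, and Abcb1a, an efflux pump of the blood-brain barrier, were above background on 0 of the 16 arrays, so their values are not given.

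The arrays hold RNA of mouse brain cells selected for CD11b, an integrin of myeloid cells, after beads had removed myelin, and their labels call the cells microglia. TAU/LysM and TAU have 2 arrays each, with no age in the labels and no statement of which transgene TAU is or whether the floxed allele is present. Old LysM-Cre/SIRT1F/F, old SIRT1F/F, young LysM-Cre/SIRT1F/F and young SIRT1F/F have 3 arrays each, and old and young are given without an age in months. These 4 groups share the floxed allele of Sirt1, and all 6 groups share a mixed BL6 and 129/Sv background. LysM-Cre drives Cre from the lysozyme 2 locus in myeloid cells, so endothelial cells are not its intended target. LysM-Cre/SIRT1F/F is written LysM-Cre from here on. No label states that replicates are separate animals or how many brains a sample holds, so p-values measure the spread between samples, which may be technical.

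Brain endothelial cells line the capillaries and form the blood-brain barrier. Tight junctions seal them to each other, transporters carry nutrients in and drugs out, and vesicle traffic across them is kept low. VEGF and angiopoietin receptors govern their growth and stability, and transcription factors of the ETS and SOX families set their identity. Endothelial cells do not carry CD11b, and Pecam1, Eng, Cd93 and Icam2 are also made by myeloid cells.

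All values are log2 normalized intensity, and levels of different genes come from different probes, which cannot be ranked against each other. Median intensity was 202.9 to 283.6 per array, and 54.9% to 57.5% of probes stood above background. The number of arrays limits the precision. All 11 tested microglia markers (P2ry12, Tmem119, Cx3cr1 and others) were above background on 16 of 16 arrays, with mean levels of 9.66 to 14.92. Of the members, 26 were above background on all 16 arrays and Erg on 8. As the RNA is from mixed cells, fewer endothelial cells and less RNA per endothelial cell cannot be told apart. On 5 arrays (young LysM-Cre 2 and 3, old SIRT1F/F 2 and 3 and TAU/LysM 1) Xist or Eif2s3y, transcripts of the inactive X and of the Y chromosome, lay near background (under 7), and the other 11 arrays had both; these 5 are called the Xist/Eif2s3y-poor arrays.

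Endothelial transcripts moved together from array to array. Most of them were higher on the old and TAU arrays than on the young arrays. Young SIRT1F/F 3 had the lowest value of all 16 arrays for 20 of the 27 genes and for 6.8% of all tested probes, and TAU 1 had the highest for 17 genes and for 9.28% of all tested probes. TAU 1 was above TAU 2 for 27 of 27 genes, and TAU/LysM 1 above TAU/LysM 2 for 25. The mean deviation of the 27 genes from their 16-array means was 0.19 and -0.48 on TAU/LysM arrays, 0.69 and 0.23 on TAU, 0.29, 0.15 and 0.39 on old LysM-Cre, 0.26, 0.42 and 0.15 on old SIRT1F/F, -0.19, -0.63 and -0.24 on young LysM-Cre, and 0.09, -0.35 and -0.98 on young SIRT1F/F. The old groups were thus within 0.15 to 0.42, while young SIRT1F/F spread over more than 1 unit. The median SD within groups was 0.413 for the members and 0.184 for all tested probes, which puts it at the 96.1 percentile. Tjp1, at 0.143, was the steadiest member. Counts with arrays left out, here and below, are given without the share of all tested probes called in the same fit. They do not show whether a change in count is particular to the members. A moderated F test for any difference among the 6 groups called 11 of the 27 genes, against 16.1% of all tested probes. They were Vwf, Icam2, Esam, Tjp1, Flt1, Ramp2, Slco1a4, Sox17, Ly6c1, Egfl7 and Mmrn2. That count was 3 to 6 without any 1 of young SIRT1F/F 2, young LysM-Cre 1, 2 or 3, old SIRT1F/F 1 or 2, old LysM-Cre 1, 2 or 3 or TAU 2, and 1 without TAU 1.

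**Figure D1:**
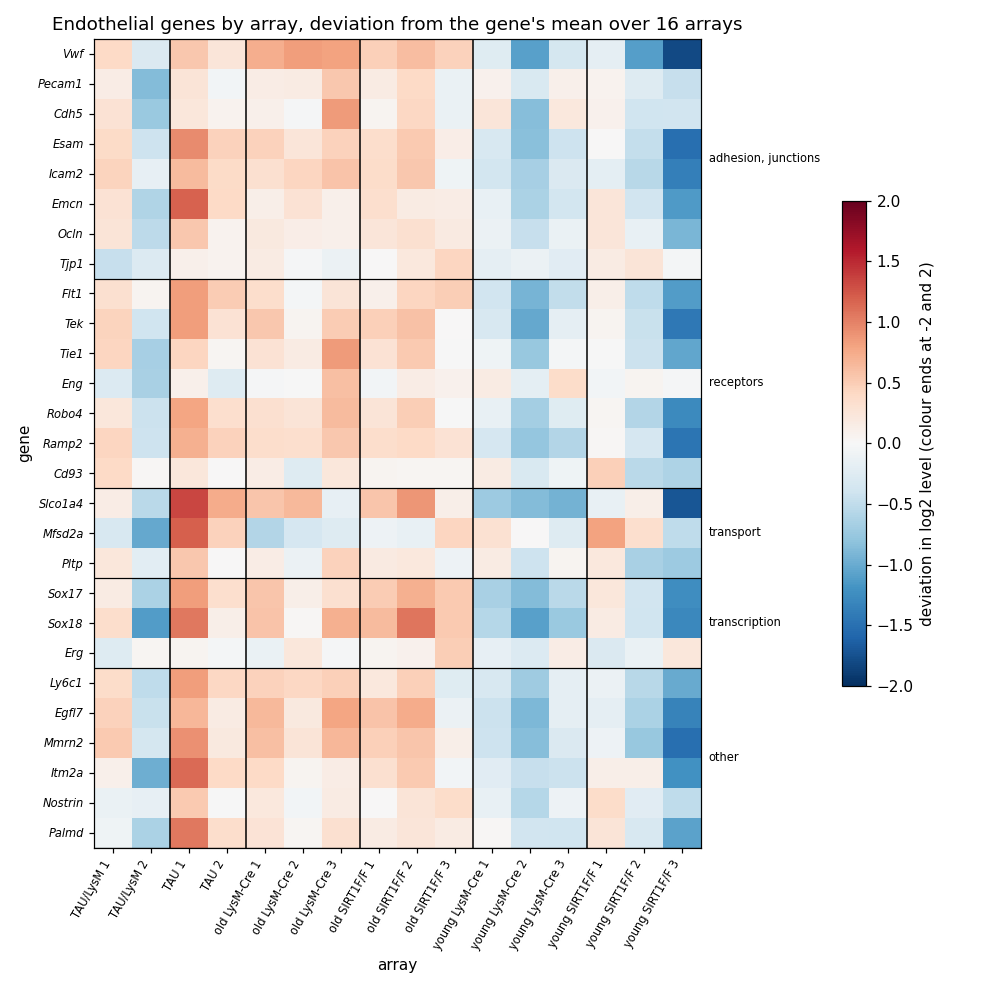
Deviation of each of the 27 tested endothelial genes (rows, grouped by role) from its own mean over 16 arrays (log2, colour), with arrays in columns and black lines between groups. Young SIRT1F/F 3 is the darkest blue column, lowest for 20 of 27 genes, and TAU 1 the darkest red, highest for 17.

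Among the genes of adhesion and haemostasis, Vwf, the multimeric clotting protein that endothelial cells store and secrete, lay at 12.65 and 11.96 on TAU/LysM arrays, 12.79 and 12.49 on TAU, 12.98, 13.08 and 13.05 on old LysM-Cre, 12.72, 12.86 and 12.71 on old SIRT1F/F, 12.01, 11.16 and 11.90 on young LysM-Cre and 12.08, 11.15 and 10.44 on young SIRT1F/F. All 6 old arrays lay above all 6 young arrays, and young SIRT1F/F 3 was lowest. Icam2, an adhesion ligand for leukocyte integrins that resting endothelium carries, lay at 10.15 and 9.54 on TAU/LysM arrays, 10.35 and 10.09 on TAU, 10.03, 10.13 and 10.27 on old LysM-Cre, 10.07, 10.24 and 9.62 on old SIRT1F/F, 9.34, 9.04 and 9.41 on young LysM-Cre and 9.51, 9.15 and 8.34 on young SIRT1F/F. Here too no old array overlapped a young one, and both TAU arrays were above all young arrays. Esam, an immunoglobulin-type adhesion protein of endothelial junctions and platelets, lay at 12.42 and 11.62 on TAU/LysM arrays, 12.99 and 12.50 on TAU, 12.50, 12.28 and 12.51 on old LysM-Cre, 12.39, 12.56 and 12.17 on old SIRT1F/F, 11.72, 11.21 and 11.63 on young LysM-Cre and 12.05, 11.56 and 10.54 on young SIRT1F/F. Its old and young arrays did not overlap, and the lowest value was again young SIRT1F/F 3. Emcn, a sialomucin that limits leukocyte adhesion, lay at 10.52 and 9.63 on TAU/LysM arrays, 11.40 and 10.62 on TAU, 10.34, 10.51 and 10.32 on old LysM-Cre, 10.56, 10.39 and 10.38 on old SIRT1F/F, 10.07, 9.60 and 9.86 on young LysM-Cre and 10.46, 9.84 and 9.09 on young SIRT1F/F. TAU 1 was the highest of the 16 and TAU 2 followed it, and 1 young array, young SIRT1F/F 1, reached the old values.

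In the junction genes Tjp1, Pecam1, Cdh5 and Ocln, unlike Esam, the old and young arrays overlapped. Within groups only Tjp1 was steadier than the median tested probe (SD 0.143 against 0.184), while Cdh5 had an SD of 0.456. Tjp1, the scaffold ZO-1 of tight junctions that many epithelia share, lay at 10.10 and 10.30 on TAU/LysM arrays, 10.67 and 10.64 on TAU, 10.73, 10.54 and 10.44 on old LysM-Cre, 10.58, 10.77 and 11.00 on old SIRT1F/F, 10.38, 10.45 and 10.34 on young LysM-Cre and 10.73, 10.82 and 10.52 on young SIRT1F/F. The 2 TAU/LysM arrays were the lowest of the 16 and the old and young arrays overlapped. Pecam1, an adhesion protein of endothelial contacts, lay at 10.46 to 11.14 on the old arrays and 10.13 to 10.70 on the young arrays. Cdh5, the endothelial cadherin, lay at 7.61 to 8.60 on the old arrays and 6.90 to 7.997 on the young arrays. Ocln, a tight junction membrane protein, lay at 7.73 to 7.94 on the old arrays and 6.71 to 7.86 on the young arrays. In all 3 the ranges of old and young overlapped.

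Among the receptors, Flt1, a VEGF receptor that also acts as a decoy, lay at 12.72 and 12.47 on TAU/LysM arrays, 13.24 and 12.91 on TAU, 12.76, 12.37 and 12.66 on old LysM-Cre, 12.51, 12.83 and 12.89 on old SIRT1F/F, 12.02, 11.47 and 11.91 on young LysM-Cre and 12.53, 11.90 and 11.29 on young SIRT1F/F. Both TAU arrays were the highest of the 16, and young SIRT1F/F 1 overlapped the old arrays. Tek, the angiopoietin receptor Tie2, lay at 11.50 and 10.65 on TAU/LysM arrays, 11.89 and 11.34 on TAU, 11.60, 11.11 and 11.55 on old LysM-Cre, 11.52, 11.63 and 11.07 on old SIRT1F/F, 10.74, 10.04 and 10.87 on young LysM-Cre and 11.11, 10.61 and 9.62 on young SIRT1F/F. Young SIRT1F/F 3 was lowest, and the highest young array just passed the lowest old array. Ramp2, which makes the adrenomedullin receptor together with Calcrl, lay at 12.20 and 11.36 on TAU/LysM arrays, 12.49 and 12.23 on TAU, 12.11, 12.11 and 12.31 on old LysM-Cre, 12.12, 12.17 and 12.05 on old SIRT1F/F, 11.43, 11.00 and 11.18 on young LysM-Cre and 11.79, 11.43 and 10.30 on young SIRT1F/F. All old arrays stood above all young arrays. Robo4, an endothelial roundabout receptor that stabilizes vessels, lay at 10.67 and 10.01 on TAU/LysM arrays, 11.23 and 10.78 on TAU, 10.76, 10.70 and 11.08 on old LysM-Cre, 10.70, 10.93 and 10.43 on old SIRT1F/F, 10.30, 9.76 and 10.20 on young LysM-Cre and 10.48, 9.85 and 9.17 on young SIRT1F/F. Old SIRT1F/F 3 lay just below young SIRT1F/F 1, and the other old arrays were above all young ones. Tie1, the partner receptor of Tek, lay at 8.26 to 9.13 on the old arrays and 7.23 to 8.26 on the young arrays, so that the lowest old and highest young array nearly met. Eng, the co-receptor endoglin of TGF-beta and BMP signals, lay at 11.00 to 11.65 on the old arrays and 10.86 to 11.41 on the young arrays. Cd93, a lectin-like receptor of endothelium and myeloid cells, lay at 10.68 to 11.17 on the old arrays and 10.32 to 11.42 on the young arrays. Neither Eng nor Cd93 separated the ages.

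Of the transporters, Slco1a4, an organic anion carrier of the blood-brain barrier, lay at 9.59 and 8.90 on TAU/LysM arrays, 10.78 and 10.19 on TAU, 10.004, 10.10 and 9.28 on old LysM-Cre, 9.99, 10.32 and 9.55 on old SIRT1F/F, 8.72, 8.57 and 8.50 on young LysM-Cre and 9.30, 9.56 and 7.74 on young SIRT1F/F. It spanned the widest range of the members, with TAU 1 at the top and young SIRT1F/F 3 at the bottom, and its old and young arrays overlapped. Mfsd2a, which imports lysolipids that carry docosahexaenoic acid and restrains vesicle traffic, lay at 8.37 and 7.67 on TAU/LysM arrays, 9.88 and 9.16 on TAU, 8.11, 8.36 and 8.43 on old LysM-Cre, 8.60, 8.54 and 9.12 on old SIRT1F/F, 9.01, 8.70 and 8.44 on young LysM-Cre and 9.49, 9.03 and 8.19 on young SIRT1F/F. It was highest on TAU 1 and lowest on TAU/LysM 2, and the old arrays lay within the span of the young ones but for old LysM-Cre 1. Pltp, the phospholipid transfer protein, made by other brain cells too, lay at 12.57 and 12.14 on TAU/LysM arrays, 12.90 and 12.37 on TAU, 12.51, 12.24 and 12.82 on old LysM-Cre, 12.53, 12.56 and 12.26 on old SIRT1F/F, 12.52, 11.94 and 12.40 on young LysM-Cre and 12.56, 11.71 and 11.62 on young SIRT1F/F. Its old and young arrays overlapped, with 2 young SIRT1F/F arrays below all others.

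Sox17, a SOX factor of arterial and barrier endothelium, lay at 9.56 and 8.77 on TAU/LysM arrays, 10.24 and 9.74 on TAU, 9.96, 9.52 and 9.71 on old LysM-Cre, 9.91, 10.11 and 9.92 on old SIRT1F/F, 8.75, 8.53 and 8.87 on young LysM-Cre and 9.63, 9.01 and 8.16 on young SIRT1F/F. Only young SIRT1F/F 1 reached into the old values. Sox18, a related factor of vascular development, lay at 10.33 and 8.86 on TAU/LysM arrays, 11.05 and 10.10 on TAU, 10.56, 10.01 and 10.70 on old LysM-Cre, 10.61, 11.05 and 10.51 on old SIRT1F/F, 9.41, 8.90 and 9.24 on young LysM-Cre and 10.15, 9.58 and 8.69 on young SIRT1F/F. TAU 1 and old SIRT1F/F 2 were highest, and young SIRT1F/F 1 lay above old LysM-Cre 2. Erg, an ETS factor that maintains endothelial identity, lay at 6.06 to 6.84 over all arrays, close to background.

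The remaining genes have mixed roles. Ly6c1, a surface antigen of brain capillaries whose near-identical neighbour Ly6c2 marks monocytes and could share its probe, lay at 13.39 and 12.51 on TAU/LysM arrays, 13.86 and 13.44 on TAU, 13.49, 13.44 and 13.50 on old LysM-Cre, 13.24, 13.50 and 12.78 on old SIRT1F/F, 12.70, 12.31 and 12.85 on young LysM-Cre and 12.91, 12.47 and 12.01 on young SIRT1F/F. Old SIRT1F/F 3 was below 2 young arrays, and the other 5 old arrays were above all young ones. Egfl7, a matrix protein that guides vessel tubes, lay at 12.63 and 11.73 on TAU/LysM arrays, 12.84 and 12.35 on TAU, 12.83, 12.38 and 12.97 on old LysM-Cre, 12.75, 12.92 and 12.05 on old SIRT1F/F, 11.74, 11.27 and 11.997 on young LysM-Cre and 11.996, 11.54 and 10.84 on young SIRT1F/F. Old and young arrays did not overlap, though the lowest old and highest young array lay close. Mmrn2, an extracellular matrix protein of vessels that binds CD93, lay at 10.54 and 9.66 on TAU/LysM arrays, 10.93 and 10.21 on TAU, 10.62, 10.28 and 10.68 on old LysM-Cre, 10.50, 10.58 and 10.13 on old SIRT1F/F, 9.61, 9.16 and 9.73 on young LysM-Cre and 9.91, 9.25 and 8.51 on young SIRT1F/F. Old and young arrays were apart, and young SIRT1F/F 3 was lowest. Palmd, palmdelphin, a cytoplasmic protein linked to the membrane, lay at 8.71 and 8.16 on TAU/LysM arrays, 9.85 and 9.15 on TAU, 9.07, 8.84 and 9.12 on old LysM-Cre, 8.96, 9.05 and 8.97 on old SIRT1F/F, 8.82, 8.41 and 8.39 on young LysM-Cre and 9.06, 8.48 and 7.73 on young SIRT1F/F. TAU 1 was the highest, and young SIRT1F/F 3 the lowest. Itm2a, a membrane protein of endothelium and T cells, lay at 11.55 to 12.12 on the old arrays and 10.38 to 11.72 on the young arrays, and Nostrin, a trafficking protein of endothelial nitric oxide synthase, at 8.01 to 8.42 on the old arrays and 7.49 to 8.43 on the young arrays. Old and young overlapped in both.

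**Figure D2:**
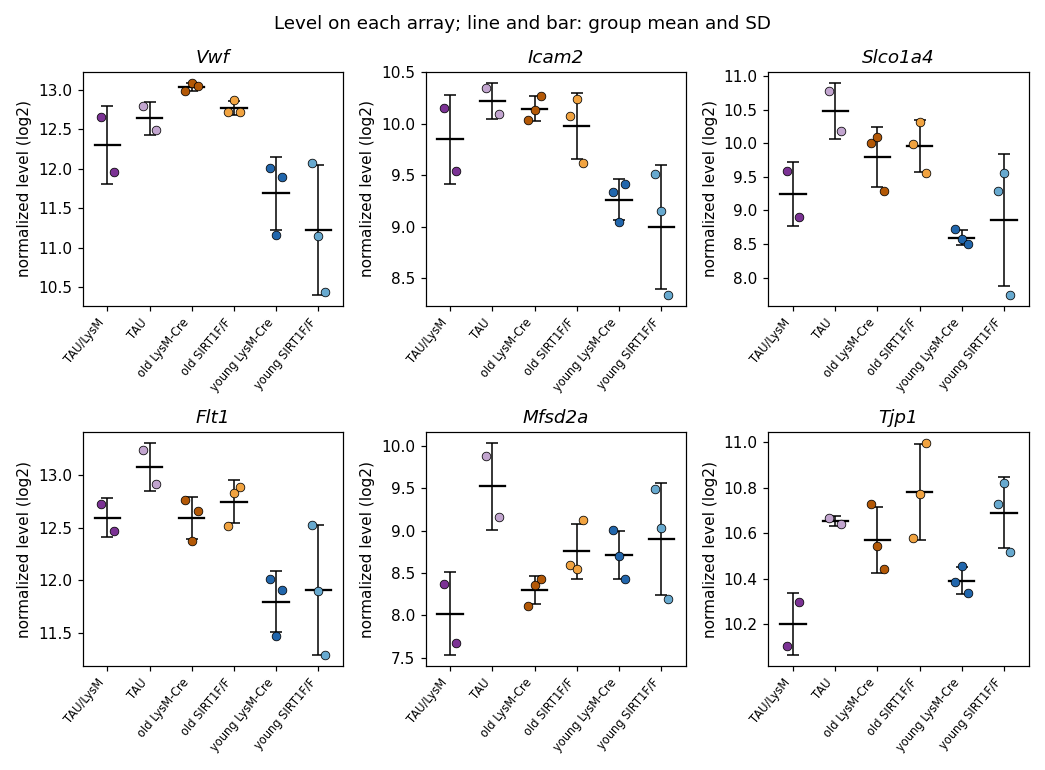
Level (log2 normalized intensity) of 6 genes on each array (points) by group, with the group mean (line) and SD (bar). Vwf and Icam2 have no overlap between the 6 old and 6 young arrays, Slco1a4 and Flt1 are highest in TAU, and Mfsd2a and Tjp1 are lowest in TAU/LysM.

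ETS factors such as Erg bind DNA at a GGA core, so the members' promoters were read for 1 ETS-type motif, whatever the members' values. RefSeq promoter sequences on GRCm38.p6, each from 250 bases before to 50 bases after a start, matched 19 of the 31 members with 25 starts. The motif AGGAAG, searched on both strands (CTTCCT on the other), was in 13 of these 25 promoters, or 52%, and in 35.4% of all 32851 promoters. It occurred for 12 of the 19 members, against 38.4% of all 27025 genes: Abcb1a, Egfl7, Emcn, Eng, Erg, Flt1, Itm2a, Ly6c1, Nostrin, Robo4, Slco1a4 and Tie1. The 7 without it were Cldn5, Kdr, Mfsd2a, Ocln, Pltp, Tek and Tjp1, of which Tek was called with age, Kdr was near background and Cldn5 had no probe. Of the members with it, Eng, Erg, Itm2a, Nostrin and Tie1 were called neither with age nor in TAU against young SIRT1F/F. Robo4, Flt1 and Slco1a4 are shown as members that were higher both with age and in TAU, and Mfsd2a as the member with the opposite sign with age. These windows were picked by hand, and whether the motif goes with a change in level was not tested. Capitals mark the motif on either strand, and all read 5′ to 3′ on the gene's strand.
Robo4, chr9:37401722-37402021, plus strand: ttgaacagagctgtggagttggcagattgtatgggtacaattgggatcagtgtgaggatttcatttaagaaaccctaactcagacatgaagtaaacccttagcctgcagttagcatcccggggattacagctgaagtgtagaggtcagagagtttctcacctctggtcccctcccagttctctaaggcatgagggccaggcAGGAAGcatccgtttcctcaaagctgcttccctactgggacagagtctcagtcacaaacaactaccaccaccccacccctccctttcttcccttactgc
Flt1, chr5:147725962-147726261, minus strand: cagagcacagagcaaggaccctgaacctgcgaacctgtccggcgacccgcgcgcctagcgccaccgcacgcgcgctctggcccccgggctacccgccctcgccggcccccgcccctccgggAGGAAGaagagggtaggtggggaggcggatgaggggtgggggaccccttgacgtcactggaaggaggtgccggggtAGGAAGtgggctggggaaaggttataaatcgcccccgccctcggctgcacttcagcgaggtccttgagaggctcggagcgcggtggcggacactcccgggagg
Slco1a4, chr6:141856171-141856470, minus strand: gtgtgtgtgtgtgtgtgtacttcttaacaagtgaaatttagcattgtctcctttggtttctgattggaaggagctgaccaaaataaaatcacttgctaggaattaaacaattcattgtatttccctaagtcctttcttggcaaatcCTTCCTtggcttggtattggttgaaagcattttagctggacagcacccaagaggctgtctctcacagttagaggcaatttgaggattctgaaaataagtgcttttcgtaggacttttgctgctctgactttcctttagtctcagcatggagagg
Mfsd2a, chr4:122961139-122961438, minus strand: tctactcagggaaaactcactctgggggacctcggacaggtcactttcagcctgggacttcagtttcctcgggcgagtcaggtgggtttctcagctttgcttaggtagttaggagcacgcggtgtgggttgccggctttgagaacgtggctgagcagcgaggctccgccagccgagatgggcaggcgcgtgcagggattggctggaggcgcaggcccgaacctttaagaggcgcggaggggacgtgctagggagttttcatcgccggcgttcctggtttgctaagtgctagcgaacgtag
The Flt1 window holds 2 copies of this exact motif, the Robo4 and Slco1a4 windows 1 each and the Mfsd2a window 0. Other sequences with a GGA core were not counted. A match is a description of these letters and not a bound site.

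Many endothelial transcripts were higher on old than on young arrays. Averaged over the 2 genotypes, a comparison added after the data had been seen, 13 of the 27 genes rose and 0 fell, against 4.82% of all tested probes higher and 4.65% lower (limma, Benjamini-Hochberg adjusted p under 0.05). The median difference of the 27 genes was 0.75, against -0.03 over all tested probes, and 26 of the 27 were positive. All 6 old arrays lay above all 6 young arrays for 7 genes (Vwf, Icam2, Esam, Tie1, Ramp2, Egfl7 and Mmrn2), which was so for 2.56% of all tested probes.

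Of the 8 adhesion and junction genes 3 rose. Vwf rose by 1.45 ± 0.23 (2.73-fold) (adjusted p = 0.00218) in limma, Icam2 by 0.93 ± 0.18 (adjusted p = 0.00692) and Esam by 0.95 ± 0.22 (adjusted p = 0.0166). The other 5 did not pass the test, with Emcn at 0.60 ± 0.21 (adjusted p = 0.0984), Ocln at 0.45 ± 0.18, Cdh5 at 0.39 ± 0.23, Pecam1 at 0.34 ± 0.17 and Tjp1 at 0.14 ± 0.09. Of the 7 receptors 4 rose. Ramp2 rose by 0.96 ± 0.21 (adjusted p = 0.0131) in limma, Tek by 0.92 ± 0.25 (adjusted p = 0.0329), Flt1 by 0.82 ± 0.18 (adjusted p = 0.012) and Robo4 by 0.81 ± 0.20 (adjusted p = 0.0229). Tie1 just missed the threshold at 0.75 ± 0.22 (adjusted p = 0.0503), while Cd93 and Eng differed by 0.19 ± 0.17 and 0.07 ± 0.13.

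Of the 3 transporter genes Slco1a4 alone passed, at 1.15 ± 0.28 (adjusted p = 0.0207) in limma. Pltp differed by 0.36 ± 0.18 (adjusted p = 0.214), and Mfsd2a was the 1 member with a negative difference, -0.28 ± 0.22 (adjusted p = 0.438). Both SOX factors rose, Sox18 by 1.25 ± 0.28 (adjusted p = 0.0151) and Sox17 by 1.03 ± 0.21 (adjusted p = 0.00874), and Erg differed by 0.20 ± 0.12. Among the remaining 6, Mmrn2 rose by 1.10 ± 0.23 (adjusted p = 0.00933), Egfl7 by 1.09 ± 0.23 (adjusted p = 0.0111) and Ly6c1 by 0.78 ± 0.18 (adjusted p = 0.0179) in limma. Itm2a, Palmd and Nostrin differed by 0.58 ± 0.24, 0.52 ± 0.19 and 0.36 ± 0.15 and did not pass. Second probes mostly went along: those of Flt1, Sox17 and Egfl7 rose by 0.78, 1.08 and 1.18. Another Egfl7 probe, at a mean level of 6.94, differed by -0.17 and a second Robo4 probe, above background on 9 arrays, by -0.14.

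Within SIRT1F/F alone, 1 of the 27 genes rose with age, Vwf by 1.55 ± 0.33 (adjusted p = 0.0354) in limma, against 0.808% of all tested probes higher. The members' median was 0.71, with 26 of 27 positive against 44.7% of all tested probes, and 14 at an unadjusted p under 0.05 against 14.7%. Within LysM-Cre alone limma called 0 members, against 1.71% of all tested probes called in either direction, with 14 again at an unadjusted p under 0.05 (17.4% of all tested probes) and a median of 0.74. Vwf differed there by 1.35 ± 0.33 (adjusted p = 0.0546). With the young samples blocked by their number, a pairing that no label states, Vwf was called in LysM-Cre as well. The difference between the 2 age effects was called for 0 members and 0% of tested probes by limma, with 0 members at an unadjusted p under 0.05 against 2.45% of all tested probes, and ran from -0.26 for Mfsd2a to 0.15 for Ly6c1. With standard errors of up to 0.56 it was not precise enough to show that the genotypes aged alike.

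The averaged count was 9 to 19 when any 1 array was left out and 0 without the 5 Xist/Eif2s3y-poor arrays, a set that leaves a single array in 2 of the groups (old SIRT1F/F, young LysM-Cre). The Vwf call within SIRT1F/F was lost without young SIRT1F/F 2 or 3, old SIRT1F/F 1, 2 or 3, old LysM-Cre 1, TAU 1 or TAU 2 (adjusted p = 0.0524 to 0.147), while 8 members were called without young SIRT1F/F 1. In LysM-Cre the count was 5 without young SIRT1F/F 3 and 2 without young SIRT1F/F 1. The share of all tested probes called in each of these reduced fits is not given.

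Members did not move equally. Set against the mean of the other 26 members on the same array, Vwf averaged 0.39 on old arrays and -0.43 on young arrays, and its lowest old value, 0.20, was above its highest young value, -0.05. Esam and Mmrn2 also had all old arrays above all young arrays on this scale, with mean shifts of 0.30 and 0.46, but narrowly. The lowest old and highest young values were -0.02 and -0.08 for Esam and -0.041 and -0.044 for Mmrn2. Ocln had all old arrays below all young arrays, at -0.29 to 0.03 against 0.07 to 0.20. Mfsd2a shifted most in that direction, by -0.98, with overlap between the ages. Old arrays therefore carried more Vwf and less Mfsd2a relative to the other endothelial transcripts, as a description with no test. A member that rose less than the others falls on this scale: Ocln itself differed with age by 0.45 ± 0.18. Vwf and Mfsd2a already had the highest and lowest age difference of the members, so the scale restates those values. It covers the members alone, with no share over all tested probes.

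**Figure D3:**
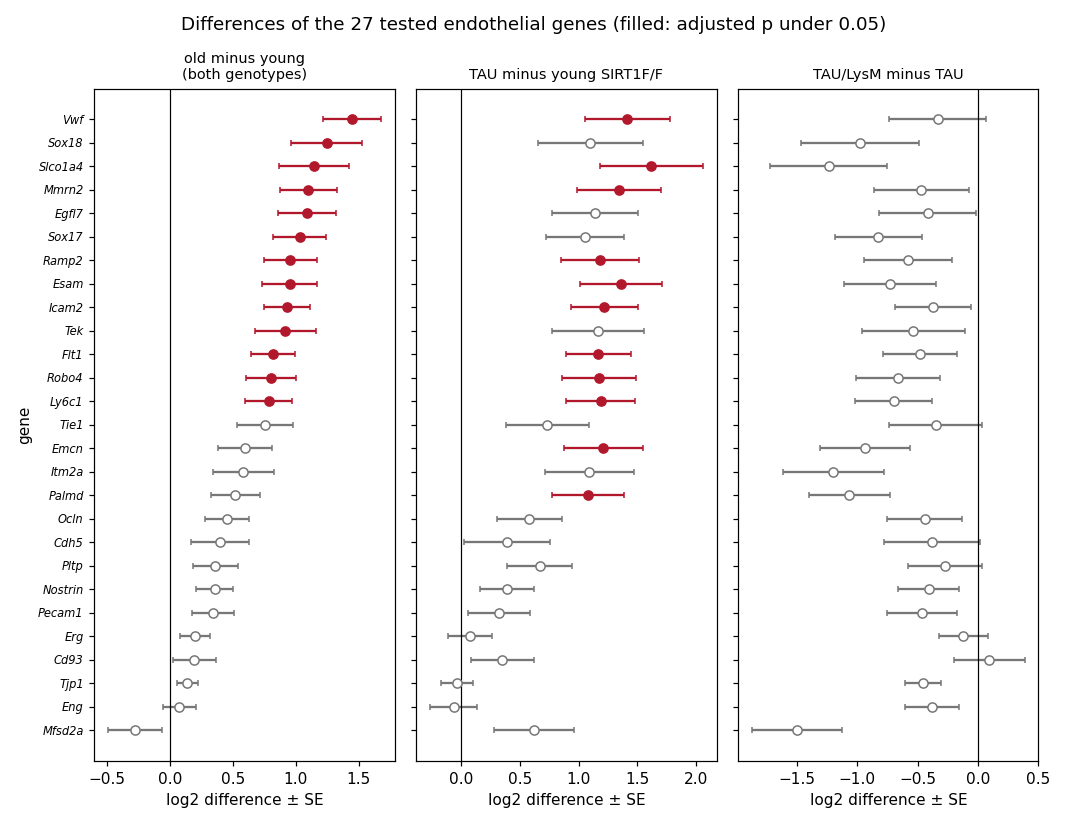
Log2 difference with its standard error for each of the 27 genes (rows, ordered by the age difference) for old minus young over both genotypes, TAU minus young SIRT1F/F and TAU/LysM minus TAU. Filled points passed an adjusted p under 0.05, which 13, 11 and 0 genes did.

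TAU arrays carried more endothelial transcript than young SIRT1F/F arrays. In limma 11 of the 27 genes rose and 0 fell, against 6.31% of all tested probes higher and 5.64% lower, with a median of 1.09 against -0.04. Both TAU arrays were above all 3 young SIRT1F/F arrays for 16 of the 27 genes and for 17.8% of all tested probes. The largest difference was that of Slco1a4, 1.62 ± 0.44 (adjusted p = 0.0306), a ratio of 3.08-fold.

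Of the adhesion genes Vwf rose by 1.42 ± 0.36 (adjusted p = 0.0241), Esam by 1.36 ± 0.35 (adjusted p = 0.023), Icam2 by 1.22 ± 0.29 (adjusted p = 0.0163) and Emcn by 1.21 ± 0.34 (adjusted p = 0.0349) in limma. The junction genes Ocln, Cdh5 and Pecam1 differed by 0.58 ± 0.28, 0.39 ± 0.36 and 0.32 ± 0.27 and Tjp1 by -0.04 ± 0.14, none of them called. Of the receptors Robo4 rose by 1.17 ± 0.32 (adjusted p = 0.0299), Ramp2 by 1.19 ± 0.33 (adjusted p = 0.035) and Flt1 by 1.17 ± 0.28 (adjusted p = 0.0176). Tek at 1.17 ± 0.39 (adjusted p = 0.0681), Tie1 at 0.73 ± 0.35, Cd93 at 0.35 ± 0.27 and Eng at -0.07 ± 0.20 did not pass. Mfsd2a at 0.62 ± 0.34 (adjusted p = 0.259) and Pltp at 0.67 ± 0.28 (adjusted p = 0.137) were not called beside Slco1a4, although a second Pltp probe was, at 0.88. The second Robo4 probe differed by 0.16 ± 0.24 here and was not called, unlike the brighter one. Ly6c1, Mmrn2 and Palmd rose by 1.19 ± 0.29, 1.34 ± 0.36 and 1.08 ± 0.31. Sox18 at 1.10 ± 0.45 (adjusted p = 0.126), Sox17 at 1.05 ± 0.33 (adjusted p = 0.0535), Egfl7 at 1.14 ± 0.37 (adjusted p = 0.0588) and Itm2a at 1.09 ± 0.38 (adjusted p = 0.0795) had differences over 1 without passing. Nostrin at 0.39 ± 0.23 and Erg at 0.07 ± 0.19 were smaller.

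The count was 0 without TAU 1 and 4 without TAU 2, each of which leaves 1 TAU array whose spread is taken from the rest, and 1 (Icam2) without young SIRT1F/F 3, where the median was 0.71. It was 2 (Icam2 and Ly6c1) without the 5 Xist/Eif2s3y-poor arrays, of which none is in these groups. Against old SIRT1F/F, limma called 0 members in TAU, with 1 at an unadjusted p under 0.05 against 17% of all tested probes, 3.99% of which were called. The median was 0.17, and -0.07 without TAU 1. As the age of the TAU mice is not given, TAU and age cannot be told apart in either comparison.

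The mean of the TAU/LysM arrays was below that of the TAU arrays for 26 of the 27 genes, against 47.7% of all tested probes, with no gene called. Both TAU/LysM arrays were below both TAU arrays for 14 genes and for 22.8% of all tested probes, and the arrays overlapped for the other 13, Vwf, Tek and Egfl7 among them. The median difference was -0.47, against 0.01 over all tested probes, of which limma called 1.48% in either direction, and 8 members had an unadjusted p under 0.05 against 13.2% of all tested probes. Mfsd2a lay at 8.37 and 7.67 in TAU/LysM, against 9.88 and 9.16 in TAU, so that the groups did not overlap. It differed by -1.50 ± 0.37 (adjusted p = 0.0676) in limma, and was called with the young groups blocked by number, with array weights, and without young SIRT1F/F 1 or 3. Slco1a4 followed at -1.24 ± 0.48 (adjusted p = 0.278), Itm2a at -1.20 ± 0.42, Palmd at -1.07 ± 0.34, Sox18 at -0.98 ± 0.49 and Emcn at -0.94 ± 0.37. Vwf differed by -0.33 ± 0.40, and Cd93, at 0.09 ± 0.29, was the 1 member above 0. The median was -0.24 without TAU/LysM 2, -0.91 without TAU/LysM 1 and -0.31 without TAU 1.

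Against the young and old LysM-Cre groups TAU/LysM had no member called. Against young LysM-Cre limma called 0 members and 7.27% of all tested probes (median 0.26), and 2 members, or 7.41%, had an unadjusted p under 0.05, fewer than the 23.8% of all tested probes. Flt1 was the nearest at 0.80 ± 0.28 (adjusted p = 0.102). That median was -0.07 without TAU/LysM 1, 0.67 without TAU/LysM 2 and 0.11 without young LysM-Cre 2. Flt1 was called when the young groups were blocked by number, and without young SIRT1F/F 1 or 3. Against old LysM-Cre limma also called 0 members and 2.26% of probes (median -0.43), with 3 members, or 11.1%, at an unadjusted p under 0.05 against 15.6% of all tested probes, and Eng was nearest at -0.65 ± 0.20 (adjusted p = 0.128). Here the median was -0.83 without TAU/LysM 1 and -0.09 without TAU/LysM 2. The LysM difference was more negative in TAU than in young mice for 27 of 27 genes and 46.3% of all tested probes (median of the genes -0.63), with 0 called by limma, 2 at an unadjusted p under 0.05 against 7.75% of probes, and 0.306% of probes called. Set against old mice it was more negative for 25 of 27 and 46% of probes (median of the genes -0.58), with 0 called by limma, 3 at an unadjusted p under 0.05 against 7.24% of probes, and 0.202% of probes called. These medians were -0.25 and -0.22 without TAU/LysM 2, -1.08 and -1.03 without TAU/LysM 1, and -0.39 and -0.33 without TAU 1. The first was also -0.39 without young SIRT1F/F 3.

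The LysM-Cre genotype went with no called endothelial gene in young or old mice. In young mice limma called 0 members (1 at an unadjusted p under 0.05, against 7.94% of probes) and 0% of tested probes, with a median of 0.10, which was -0.22 without young SIRT1F/F 3, and values from -0.30 for Tjp1 to 0.47 for Vwf. In old mice it called 0 (0 at an unadjusted p under 0.05, against 6.6% of probes) and 0.0184% of probes, with a median of 0.02 and values from -0.45 for Mfsd2a to 0.31 for Ly6c1. Averaged over young, old and TAU samples, limma called 0 members and 1.22% of probes, and 4 members, or 14.8%, had an unadjusted p under 0.05, fewer than the 19.9% of all tested probes. The nearest were Tjp1 at -0.32 ± 0.08 (adjusted p = 0.0536) and Mfsd2a at -0.71 ± 0.19 (adjusted p = 0.0731), both lower with LysM-Cre in all 3 settings. For Mfsd2a the TAU pair differed most, by -1.50, against -0.45 in old mice. In young mice its means were 8.71 with LysM-Cre and 8.90 without, and the arrays overlapped. Tjp1 and Mfsd2a were both called when the young groups were blocked by number, Tjp1 also without young LysM-Cre 2, and Mfsd2a without young SIRT1F/F 3.

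Other genes of vessels, listed apart from the 27, were read in the same fits. With age, 13 of 32 further endothelial and barrier genes rose and 1 fell (median 0.52), against 4.82% of all tested probes higher and 4.65% lower. Slc2a1, the glucose transporter of the barrier, rose by 0.73 ± 0.12 (adjusted p = 0.00269), and Slc38a5, an amino acid transporter, by 1.30 ± 0.23 (adjusted p = 0.00443) in limma. Pglyrp1, a peptidoglycan-binding protein, and Foxq1, a forkhead factor of brain endothelium, rose by 0.79 and 0.93. Limma also called Pglyrp1 lower in TAU against old SIRT1F/F, at -1.001 ± 0.26 (adjusted p = 0.049). The same held in TAU/LysM against old LysM-Cre, at -1.36 ± 0.26 (adjusted p = 0.0153). Pglyrp1 lay at 11.69, 11.11 and 11.06 on young SIRT1F/F arrays and 12.26, 12.04 and 12.89 on young LysM-Cre arrays. Whether its signal comes from endothelial cells was not tested. Klf4, a flow-responsive factor that myeloid cells also make, fell by 0.50 and is named because it was the 1 to fall with age. Ets1, of the same list, was called lower in TAU/LysM against young LysM-Cre, at -0.83 ± 0.17 (adjusted p = 0.0112) in limma. It lay at 11.34 to 11.85 on the TAU/LysM and TAU arrays and 12.07 to 12.64 on the young and old arrays. In TAU against young SIRT1F/F, 10 of the 32 rose and 0 fell (median 0.72), against 6.31% of all tested probes higher and 5.64% lower. The rises were led by Slc38a5 at 1.89 ± 0.37, Slc2a1 at 0.96 ± 0.19, Slc19a3, a thiamine transporter, at 1.11 ± 0.24, and Igfbp7 at 1.12 ± 0.24.

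Of 10 VEGF and angiopoietin genes 2 rose with age and 2 in TAU against young SIRT1F/F, where 4.82% and 6.31% of all tested probes were higher. With age they were Vegfc, a growth factor of lymphatic and venous endothelium, by 1.07 ± 0.20 and Ptprb, the phosphatase that restrains Tek, by 0.89 ± 0.22. In TAU they were Vegfa, the ligand of Flt1 and Kdr, by 1.09 ± 0.22 and Angpt2, an antagonist at Tek, by 1.26 ± 0.27. Limma also called Vegfa higher in TAU against old SIRT1F/F, by 1.38 ± 0.22. The same held in TAU/LysM against young LysM-Cre, by 1.05 ± 0.22, and against old LysM-Cre, by 1.27 ± 0.22. Vegfa lay at 11.28 and 11.81 on TAU/LysM arrays, 11.03 and 11.39 on TAU, and 9.58 to 10.78 on the young and old arrays. Of 11 genes of Wnt and Norrin signalling at the barrier, Reck, Gpr124 (both parts of the Wnt7 receptor complex) and Tnfrsf19 rose with age, by 1.16 ± 0.20, 0.90 ± 0.18 and 0.85 ± 0.21. Of these, Tnfrsf19 and Gpr124 also rose in TAU against young SIRT1F/F, by 1.31 ± 0.33 and 0.96 ± 0.28. Wnt7a, Wnt7b and Ndp, the ligands, were above background on at most 1 array. Of 10 genes of activated or fenestrated endothelium 4 rose with age: Edn1, encoding endothelin, by 0.68 ± 0.14, the leukocyte ligand Icam1 by 0.52 ± 0.11, Nos3, the endothelial nitric oxide synthase, by 1.09 ± 0.24 and Thbd, thrombomodulin, by 0.81 ± 0.19. Whether the Icam1 signal comes from endothelial cells was not tested. The mean deviation of this list was -0.07 to 0.93 on old arrays and -0.80 to 0.92 on young arrays, which overlapped. Edn1 also rose in TAU, by 0.73 ± 0.22. In TAU/LysM against TAU no gene of these 4 lists was called, with medians of -0.39, -0.26, -0.22 and -0.13.

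Markers of other cell types moved on the same arrays, and their part in the endothelial results was not tested. In TAU against young SIRT1F/F, 10 of 12 oligodendrocyte genes rose (median 2.17, Fa2h, Olig1, Mobp and Opalin first), 7 of 8 choroid plexus genes (median 2.26, Folr1, Kl, Calml4 and Aqp1 first), 9 of 22 mural and perivascular genes (median 0.60, Igfbp2, Igf2, Rgs5 and Vtn first) and 6 of 9 astrocyte genes, with 1 astrocyte gene, Slc1a3, lower. Over all tested probes 6.31% were higher and 5.64% lower in that comparison. Neuronal genes rose for 3 of 7 (Eno2, Stmn2 and Map2, median 0.57). Monocyte genes, of interest for Ly6c1, had 0 of 6 called, with mean deviations of -1.12 to -0.58 in TAU and -0.78 to 0.06 in young SIRT1F/F. Of 11 microglia genes 3 fell (Tmem119, Siglech and Sall1, median -0.21). In TAU/LysM against TAU 1.16% of all tested probes were lower and 0.324% higher. There 8 of 12 oligodendrocyte and 7 of 8 choroid plexus genes fell. So did 1 of 22 mural genes (Igfbp2), 2 of 9 astrocyte genes (Aldoc and Gfap) and 1 of 7 neuronal genes (Map2). Of 6 monocyte genes 1, F10, rose. The mean deviation of the oligodendrocyte list was -0.31 to -0.21 in TAU/LysM, 1.62 to 1.92 in TAU and -0.44 to 0.09 in young SIRT1F/F, so both TAU arrays stood apart. That of the choroid plexus list was -0.65 to 0.0026 in TAU/LysM, 1.30 to 1.79 in TAU and -0.78 to -0.066 in young SIRT1F/F, and that of the astrocyte list -0.20 to 0.14, 0.31 to 0.47 and -0.47 to -0.0048. That of the mural list was 0.20 to 0.48 in TAU/LysM, 0.27 to 0.53 in TAU and -0.49 to 0.04 in young SIRT1F/F.

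With age the medians of these lists ran from -0.39 to 0.49, against 0.75 for the endothelial genes. The lists differ in signal. Some mural genes lay near background, such as Abcc9 and Col1a1 at mean levels of 6.31 and 6.17, and others, such as Acta2 at 12.54, did not. The medians therefore do not rank how much each cell type changed. Over all tested probes 4.82% were called higher with age and 4.65% lower. In lists this small, the 2 mural genes and the 1 microglia gene in each direction are not far from these shares. Of 22 mural genes 2 rose (Anpep and Col1a2, median 0.27), of 9 astrocyte genes 3 (Gja1, Clu and Fgfr3, median 0.18), of 7 neuronal genes 3 (Syp, Stmn2 and Gad1, median 0.17) and of 12 oligodendrocyte genes 2, with 1 lower (Cldn11, Mal and Fa2h, median -0.17). Choroid plexus had 0 of 8 called. Of 8 border-associated macrophage genes 4 fell (Ms4a7, Mrc1, Clec10a and Pf4, median -0.39), of 11 microglia genes 1 rose (Itgam) and 1 fell (Olfml3), and of 6 monocyte genes 2 rose (Clec4e and F10, median 0.49). Neutrophil genes had 0 of 12 called (median 0.41). Platelets and their precursors also hold Vwf and Esam, and of 6 erythrocyte and platelet genes 1 rose, the haemoglobin gene Hbb-b2 (median 0.20). Of 4 T and NK cell genes 2 fell, Nkg7 and Klrb1c (median -0.24). The endothelial mean deviation was 0.15 to 0.42 on old arrays and -0.98 to 0.09 on young arrays, with no overlap, and that of the mural list -0.13 to 0.17 on old and -0.51 to 0.04 on young arrays. The neuronal list lay at 0.03 to 0.28 on old and -0.41 to -0.05 on young arrays, which did not overlap either. The astrocyte list lay at -0.06 to 0.28 on old and -0.47 to -0.0048 on young arrays, and the border macrophage list at -0.50 to -0.02 on old and -0.23 to 0.47 on young arrays. Some defining markers of these cells were above background on 0 of 16 arrays: Snap25, Syt1 and Slc17a7 of neurons, Slc1a2 of astrocytes, Olig2 of oligodendrocytes, Ccr2 of monocytes and Cd3e and Cd8a of T cells.

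**Figure D4:**
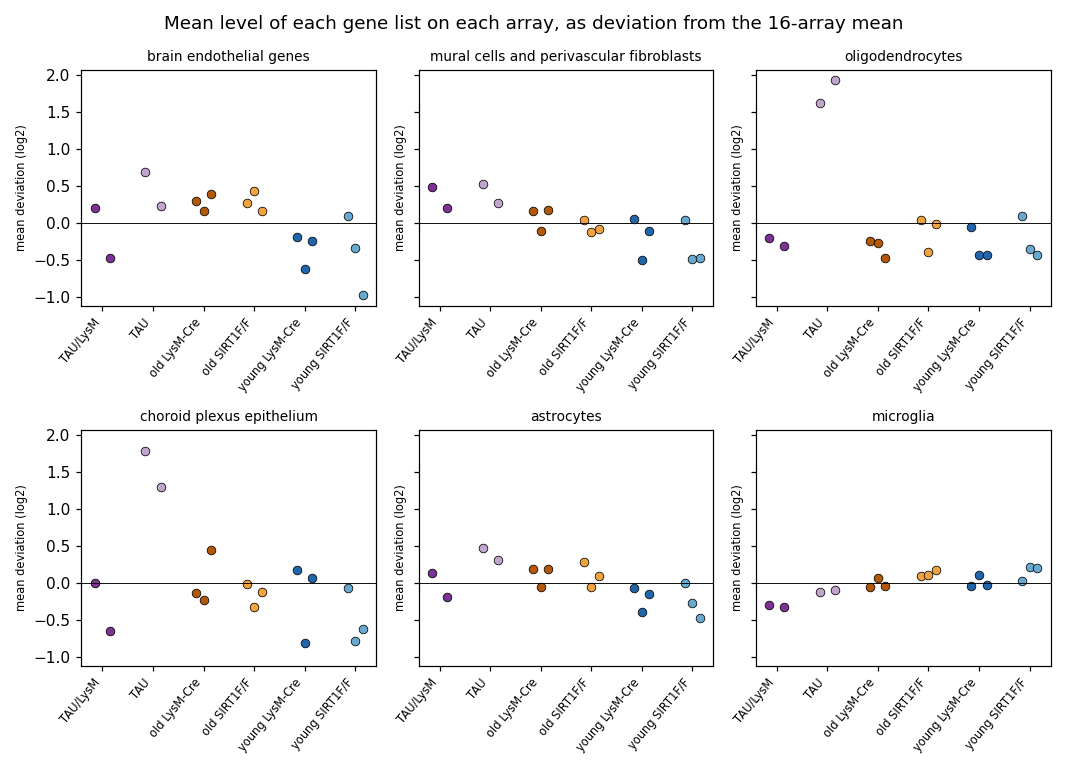
Mean deviation (log2) of 6 gene lists from their 16-array means on each array (points), by group. The endothelial genes are highest on TAU 1 (0.69) and lowest on young SIRT1F/F 3 (-0.98), whereas oligodendrocyte genes are high on the 2 TAU arrays alone (1.62 and 1.92).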

How the data were processed

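The members and lists were chosen with earlier results of these data known. Per the labels, Illumina arrays were hybridised with biotinylated cRNA of CD11b-selected cells. The deposited table of probe intensity, on a linear scale and not normalized between arrays, was the starting point. A second deposited table, in log2, matched the quantile-normalized intensity to within 5e-09 (median 7.894 in each column) and served as an alternative. The scanner software is not given in the sources used here.

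Intensities were background-corrected (normexp, offset 16), log2-transformed and quantile-normalized with limma 3.58.1 in R 4.3.3. Background was the mode of each array's log2 intensity plus 1.645 times the spread below it. A probe was tested if above it on at least 2 arrays. One limma model with 6 group means (10 residual degrees of freedom, prior 3.68) gave all contrasts, with Benjamini-Hochberg adjustment over 16344 probes. The TAU and age comparisons share the young SIRT1F/F arrays, and TAU/LysM against TAU shares the TAU arrays. Probes were named from the platform annotation (23978 of 25697 with 1 symbol, 1719 with none). Arrays of 1 group correlated at 0.984 to 0.994.

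All members are named. A gene's value is that of its probe of highest mean level, and other probes are given where they disagree on a called difference. Values on every array are given for members called in any comparison and the 3 of highest mean level, and up to 4 called genes of a list are named, smallest p first. Mfsd2a was given on every array beyond this rule. In the young groups, samples of the same number deviated together (r = 0.346, 0.508 and 0.237), so a replicate block within those groups was 1 alternative. No label states such a pairing, and it was taken from these data. The same r was 0.237 for TAU/LysM against TAU and -0.02, 0.397 and 0.341 for old against young LysM-Cre. It was 0.047 to 0.072 for the 2 old groups and 0.029 to 0.137 for old against young SIRT1F/F. Alternatives changed the background correction, normalization, filter, block, weights, variance prior, probe choice and arrays. The model was checked on simulated data.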

Additional observations from a re-analysis of the deposited data

How the results depend on the processing

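No called difference of a member changed sign under any of 28 alternatives, and the called genes of the other lists are not covered by this. The members' median changed sign in 5 comparisons with 0 members called: in 6 of the 28 for the age interaction (-0.06, range -0.35 to 0.24), 5 for old LysM-Cre against old SIRT1F/F (0.02, range -0.04 to 0.13), 3 for young LysM-Cre against young SIRT1F/F (0.10, range -0.22 to 0.34), 2 for TAU/LysM against young LysM-Cre (0.26, range -0.13 to 0.67) and 1 for TAU against old SIRT1F/F (0.17, range -0.07 to 0.37, without TAU 1). In the other 9 it kept its sign. The counts called in the 2 genotype comparisons, the age interaction, TAU against old SIRT1F/F, TAU/LysM against old LysM-Cre and the 2 differences of the LysM effect were 0 in all. Counts of members called moved as follows, and the cause was not tested. No share of all tested probes called stands beside them, so they do not show whether a move is particular to the members. For the average LysM effect (0 called) it was 1 with a normexp offset of 50, the deposited log2 values, a filter on every array of at least 1 group, array weights, a trended robust prior or 1 probe per gene, and 2 with the replicate block in the young groups alone. For age in LysM-Cre (0 called) it was 1 with offset 50, the deposited values, array weights, 1 probe per gene or the young block. With the replicate block over all groups, a pairing that no label states either, 2 were called with age in each genotype and 16 on average. For age in SIRT1F/F (1 called) it was 2 with array weights and 0 without a filter. For TAU against young SIRT1F/F (11 called) it was 6 without a filter, which tests more probes. For TAU/LysM against TAU (0 called) it was 1 with array weights or the young block. For TAU/LysM against young LysM-Cre (0 called) it was 1 with median scaling (Eng) or the young block (Flt1). The F test (11 called) gave 7 with median scaling and 4 without a filter. Median scaling shifted the median of all tested probes to -0.16 in TAU against young SIRT1F/F and -0.10 with age, where 9 and 14 members were called.

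Without the 5 Xist/Eif2s3y-poor arrays, with fewer samples, 0 were called with age in SIRT1F/F, 0 on average, 0 by the F test and 2 in TAU against young SIRT1F/F. Without both young SIRT1F/F 3 and TAU/LysM 2, chosen after seeing the data, 0 were called with age in SIRT1F/F, 8 in LysM-Cre, 4 in TAU against young SIRT1F/F and 1 (Ramp2) in TAU/LysM against young LysM-Cre. Leaving out 1 array at a time gave 1 to 15 by the F test, 0 to 1 for the average LysM effect, 0 to 5 with age in LysM-Cre, 0 to 8 in SIRT1F/F, 9 to 19 on average, 0 to 16 in TAU against young SIRT1F/F, 0 to 1 in TAU/LysM against TAU and 0 to 1 in TAU/LysM against young LysM-Cre. Tek lost its age call in 8 of the 28. Signal near background limits Erg, Kdr and Abcb1a.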
